A study of Mus musculus with 3 samples.

Results

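The clustered protocadherin genes of mouse chromosome 18 were examined in chromatin immunoprecipitation followed by sequencing (ChIP-seq) of the caudate putamen, the dorsal striatum. All peaks of the H3K4me3 list and of the RARβ list that overlapped chromosome 18 at 37090000 to 38010000 (build mm9) by at least 1 bp were taken, a choice made by position alone. This gave 63 of the 35971 H3K4me3 peaks and 0 of the 8075 RARβ peaks. The region was divided into a Pcdha stretch (37090000 to 37350000), a Pcdhb stretch (37420000 to 37660000) and a Pcdhg stretch (37820000 to 38010000). In the RefSeq table of gene names (assembly GRCm38.p6), 14 genes carry Pcdha names, 22 Pcdhb names and 22 Pcdhg names, 58 in all. That table was used for names and gene order only, since its build differs from mm9. Peaks are therefore named by position and none is assigned to a single gene, exon or UTR.

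The tissue came from wild-type male mice of mixed C57BL/6J and 129SvEms/j background, littermates of RARβ-null mutants. The labels list 3 libraries, 1 per antibody: anti-RARbeta (sc-552), anti-H3K4me3 (ab8580) and anti-GFP (ab290). The anti-GFP library was not used here as a library of its own. The headers do not name the antibody of the control behind fold enrichment, score and FDR, so whether it is the anti-GFP library is not known. Age, number of animals and pooling are not given in the labels, and no peak is paired with a gene, so the labelled tissue was not checked against marker genes. With 1 library per antibody there is no replicate error and no test between conditions, and neighbouring peaks share their library and are not replicates.

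Clustered protocadherins are cell adhesion proteins of the cadherin superfamily, and neurons use them to tell their own branches from those of other neurons. Each variable gene has a promoter and a large first exon of its own, and the genes stand one behind the other in the same direction of transcription. Variable exons of the alpha and gamma clusters are spliced to constant exons shared within the cluster, whereas genes of the beta cluster have a single exon. A neuron usually transcribes only a few of the alternate genes, while the C-type genes at the far end of the alpha and gamma clusters are used more widely. H3K4me3, histone H3 trimethylated at lysine 4, marks active promoters. RARβ, a nuclear receptor for retinoic acid, pairs with RXR on DNA and controls the transcription of its target genes. In bulk tissue, a mark present in few cells and a weak mark in all cells cannot be told apart.

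The region held many small H3K4me3 peaks at short distances, as shown in the map of both libraries. The Pcdha stretch had 15 peaks, the Pcdhb stretch 16 and the Pcdhg stretch 26, with 1 more between Pcdha and Pcdhb and 5 between Pcdhb and Pcdhg. Per length this was 57.7 peaks per Mb in Pcdha (exact Poisson 95% interval 32.3 to 95.2), 66.7 in Pcdhb (38.1 to 108) and 137 in Pcdhg (89.4 to 201). The intervals of Pcdha and Pcdhb overlap almost wholly, and that of Pcdhg reaches down to the upper part of both. Over the 920 kb of the region the density was 68.5 peaks per Mb (52.6 to 87.6). The flanks of the same length held 35 peaks below the region (38.0 per Mb, 26.5 to 52.9) and 46 above it (50.0 per Mb, 36.6 to 66.7). When the genome was divided into fixed windows of 920 kb and the 2 that touch the region were left out, the 2515 windows with at least 1 H3K4me3 peak had a median of 11 peaks, and 3 of them had 63 or more. The intervals cover counting error only.

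**Figure D1:**
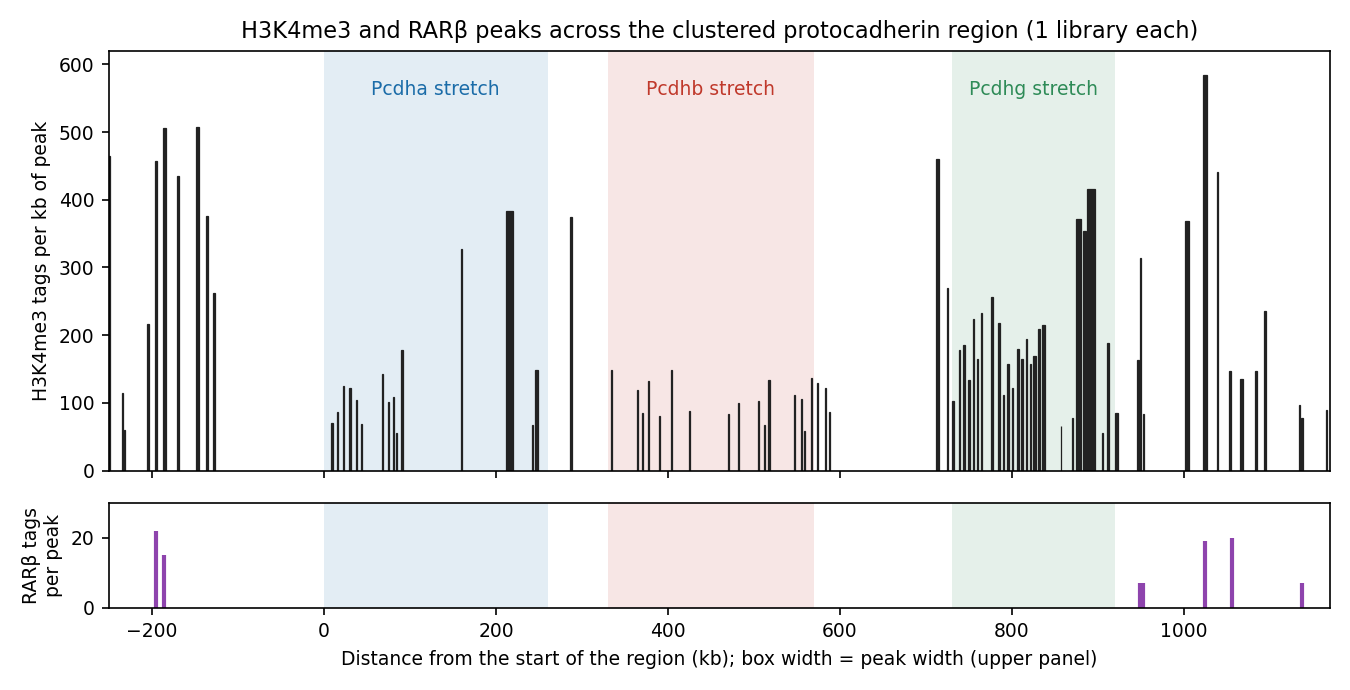
Peaks of both libraries from 250 kb below to 250 kb above the region, by distance from its start in kb. In the upper panel each box is an H3K4me3 peak, as wide as the peak and as high as its tags per kb; in the lower panel each line is a RARβ peak, as high as its tags. The shaded stretches hold 15, 16 and 26 H3K4me3 peaks, and no RARβ peak lies between the one 185.7 kb below the region and the one 29.4 kb above it.

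Peaks of the region were mostly narrow. A width under 2 kb was found in 50 of 63 peaks (79.4%), against 58.5% of the whole list. All 16 Pcdhb peaks were that narrow, as were 11 of 15 in Pcdha and 19 of 26 in Pcdhg. The median width was 1371 bp in Pcdha (order-statistic 95% interval 1289 to 2197), 1319 bp in Pcdhb (1122 to 1539) and 1627 bp in Pcdhg (1465 to 1846), against 1679 bp in the whole list. The quartiles of the list, 1178 and 2806 bp, enclose all 3 medians. Pcdhb had the least variable widths, from 935 to 1618 bp. In Pcdha they ran from 810 to 7773 bp, and in Pcdhg from 698 to 8575 bp. Only 3 of the 63 peaks of the region (4.76%) were wider than 4 kb, against 11.2% of the list. In the flanks 5 of 35 peaks below the region and 5 of 46 above it were that wide. Of the 3 in the region, 1 stood at the far end of Pcdha and 2 at the far end of Pcdhg.

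Tag density, the number of H3K4me3 tags in a peak per kb of its width, was highest in Pcdhg by its median and by summed tags. The median was 179 tags per kb there (order-statistic 95% interval 157 to 215), 109 in Pcdha (70.4 to 149) and 105 in Pcdhb (82.9 to 133). The interval of Pcdhg lay above both others, and those of Pcdha and Pcdhb overlapped. With tags summed over summed length, where wide peaks weigh more, the values were 237 in Pcdhg, 200.1 in Pcdha and 110.2 in Pcdhb, so that Pcdha lay closer to Pcdhg than to Pcdhb. The whole list had a median of 121 tags per kb, with quartiles of 71.7 and 349. Densities above the median of the list were found in 21 of 26 Pcdhg peaks, 7 of 15 Pcdha peaks and 5 of 16 Pcdhb peaks. In the region as a whole, 6 of 63 peaks exceeded the upper quartile of the list. Among peaks under 2 kb wide, which include all 16 of Pcdhb, the median was 120 tags per kb in the region (102 to 133). In the list it was 77.2 for peaks under 2 kb, so the narrow peaks of the region, and Pcdhb by its median, were denser than that. The order was the same for fold enrichment, the authors' ratio of tags piled up at a summit to the background around it. Its median was 12.7 in Pcdhg (8.84 to 17.2), 9.62 in Pcdha (6.80 to 18.3) and 7.73 in Pcdhb (6.34 to 9.66), against 10.27 in the list. Here the intervals of all 3 stretches overlapped. For peaks under 2 kb wide the median fold enrichment was 9.57 in the region and 6.3 in the list.

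**Figure D2:**
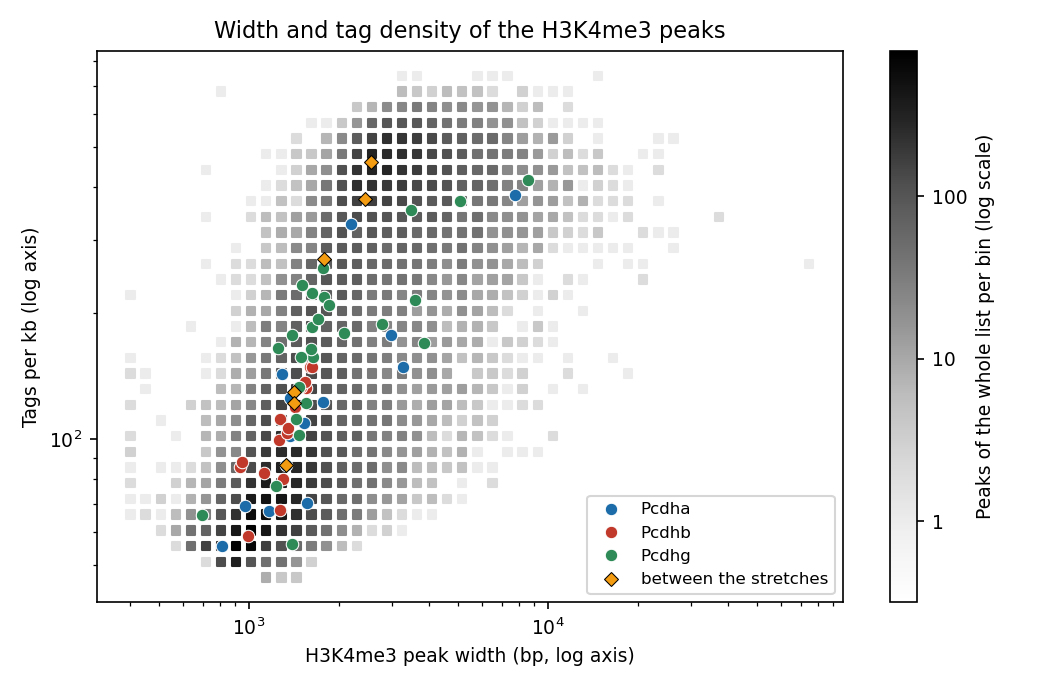
Width in bp and tags per kb of every H3K4me3 peak, both on log axes; grey squares show how many of the 35971 peaks of the list fall in a bin, and coloured points are the 63 peaks of the region. Pcdhb peaks reach at most 149 tags per kb and 1618 bp, while 1 Pcdha peak and 2 Pcdhg peaks lie above 4 kb.

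An empirical FDR of at most 5% was given by the authors' peak caller to 8 of the 63 peaks (12.7%, Wilson 95% interval 6.58 to 23.1), against 35.0% of the list. These were 2 in Pcdha, 0 in Pcdhb, 3 in Pcdhg and 3 between the stretches. Among peaks under 2 kb wide the shares were closer, with 1 of 50 in the region (2%, 0.354 to 10.5) and 3.62% in the list. The FDR did not fall steadily with the peak score, which is −10 times log10 of the p-value. Its median over the list was 13.07% for scores up to 100, 20.63% for scores from 300 to 500 and 4.25% for scores from 2000 up to the common value of 3100. Many peaks of the region had middling scores, with a median of 587, and their median FDR was 15.8%. A score of exactly 3100 was reached by 5 of 63 peaks (7.94%) and by 31.6% of the list.

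Along the Pcdha stretch, 11 mostly narrow peaks, the first 6 of them evenly spaced, were followed by 4 others. Most of these were stronger and further apart, but 1 was weak and stood 6.22 kb from the last. In the gene table the order runs from Pcdha1 to Pcdha12 and ends with Pcdhac1 and Pcdhac2, the C-type genes of this cluster. The first 11 peaks took up 83.9 kb, from 37098499 to 37182355, with 45 to 531 tags and a median of 104 tags per kb (range 55.6 to 177). The peak nearest the lower end, at 37098499 to 37100060, had 110 tags (exact Poisson 95% interval 90.4 to 133), 70.4 tags per kb and a fold enrichment of 7.68. The weakest in density, at 37173763 to 37174572, had 45 tags on 810 bp and a fold enrichment of 4.73. The last of the 11, at 37179364 to 37182355, was the densest of them, with 531 tags on 2992 bp and a fold enrichment of 24.43. It was followed by 66.4 kb without an H3K4me3 peak.

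The remaining 4 Pcdha peaks held 69.4% of the tags of the stretch. A peak at 37248741 to 37250937 had 719 tags, 327 tags per kb and a fold enrichment of 19.7. The widest peak of the stretch lay at 37301839 to 37309611, 7773 bp wide, with 2981 tags (exact Poisson 95% interval 2875 to 3090), 384 tags per kb and a fold enrichment of 34.2. Its width exceeded that of 98.6% of the list and its density that of 78.9%. A weak peak at 37331411 to 37332572 had 78 tags and 67.1 tags per kb. The peak nearest the upper end, at 37335737 to 37339013, had 488 tags on 3277 bp, 149 tags per kb and a fold enrichment of 18.34. Between Pcdha and Pcdhb there was a single peak, at 37376044 to 37378489, with 916 tags, 374 tags per kb and a fold enrichment of 17.56.

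The Pcdhb stretch had no strong peak. In the gene table this cluster runs from Pcdhb1 to Pcdhb22. That table was used for order only, so the 16 peaks of the stretch were not matched to genes or set against their number. Counts ran from 58 to 240 tags per peak, and densities from 58.6 to 149 tags per kb. The first peak, at 37423919 to 37425520, had 238 tags, 149 tags per kb and a fold enrichment of 15.96, and stood 28.6 kb before the next. Close to it in strength was the peak at 37493212 to 37494829, the widest of the stretch, with 240 tags, 148 tags per kb and a fold enrichment of 15.56. The other 14 had fold enrichments of at most 10.29, the value of the peak at 37466766 to 37468317 (205 tags on 1552 bp). The lowest densities were those of the peaks at 37648850 to 37649838, with 58 tags, and at 37601727 to 37602999, with 86 tags. The last peak inside the stretch, at 37656427 to 37657965, had 210 tags and 136 tags per kb.

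The end of the Pcdhb stretch fell within a series of like peaks. Just beyond it lay 3 peaks at 37663603 to 37665015, 37672952 to 37674367 and 37677680 to 37679009, with 183, 173 and 115 tags. Their widths of 1413, 1416 and 1330 bp and densities of 130, 122 and 86.5 tags per kb fall within the range of the 16 peaks inside. With them the stretch would hold 19 peaks with a median of 106 tags per kb. After them came 123.4 kb without an H3K4me3 peak. Just below the Pcdhg stretch, at 37802401 to 37804956, stood the peak with the highest fold enrichment of the region, 56.34, higher than in 99.6% of the list. It had 1177 tags on 2556 bp, and the highest density of the region, 460 tags per kb. The gene table lists Slc25a2, a mitochondrial carrier, and Taf7, a subunit of the general transcription factor TFIID, between Pcdhb22 and Pcdhga1. A further peak at 37814663 to 37816443 had 481 tags, 270 tags per kb and a fold enrichment of 35.47.

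The Pcdhg stretch held 54.3% of all H3K4me3 tags in the region's peaks, 13696 of 25206. In the gene table its order starts with Pcdhga1, mixes 12 Pcdhga and 7 Pcdhgb genes, and ends with the C-type genes Pcdhgc3, Pcdhgc4 and Pcdhgc5. The first 19 peaks, over 107.7 kb from 37821061 to 37928800, had a median of 178 tags per kb, with a range of 102 to 256, and 150 to 773 tags each. The peak at the lower end, at 37821061 to 37822525, had the lowest density of these, with 150 tags and a fold enrichment of 4.88. The highest fold enrichment among them was 23.6, at 37920761 to 37922606, with 385 tags and 209 tags per kb. The widest of them lay at 37914687 to 37918519, with 651 tags on 3833 bp.

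The far end of Pcdhg carried the 3 peaks with the most tags of the stretch, 2 of them wider than 4 kb. These 3 lay in 21.6 kb and held 48.8% of the tags of the stretch. The first, at 37964984 to 37970057, was 5074 bp wide, with 1887 tags and 372 tags per kb. Its fold enrichment was only 6.8, below that of most of the first 19 peaks, although its density was higher than in 77.5% of the list. The second, at 37973420 to 37976887, had 1226 tags, 354 tags per kb and a fold enrichment of 11.83. The third, at 37978007 to 37986581, was the widest of the region, 8575 bp, with 3565 tags (exact Poisson 95% interval 3449 to 3684), 416 tags per kb and a fold enrichment of 37.57. Its width exceeded that of 99.0% of the list. Around them lay weak peaks, at 37946835 to 37947532 with 46 tags and 65.9 tags per kb and at 37994822 to 37996214 with 78 tags and 56.0 tags per kb. The peak nearest the upper end, at 38000648 to 38003431, had 523 tags on 2784 bp and 188 tags per kb. The next peak, just outside the region at 38010322 to 38013526, had 273 tags and 85.2 tags per kb.

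Spacing was short and, in places, even. The median distance from one H3K4me3 summit to the next was 7.11 kb in Pcdha (14 distances, order-statistic 95% interval 5.80 to 28.1), 10.8 kb in Pcdhb (15 distances, 6.70 to 23.9) and 5.81 kb in Pcdhg (25 distances, 5.07 to 6.91). The whole list had a median of 26.2 kb, with quartiles of 10.6 and 63.1 kb. Distances of at most 10 kb made up 10 of 14 in Pcdha, 7 of 15 in Pcdhb and 21 of 25 in Pcdhg, against 23.6% in the list. In the flanks they made up 14 of 34 below the region and 20 of 45 above it. The median distances there were 14.2 kb (8.50 to 23.0) and 12.5 kb (8.19 to 17.2), so by both measures Pcdhb was close to the flanks. Distances of 4 to 8 kb, a band not set in advance, were found in 9, 7 and 20 cases in Pcdha, Pcdhb and Pcdhg, against 11.4% in the list. In the flanks, 7 of 34 distances below the region and 7 of 45 above it were of this size. Distances ran from 3.63 to 69.8 kb in Pcdha, from 4.48 to 45.6 kb in Pcdhb and from 4.27 to 19.4 kb in Pcdhg, with coefficients of variation (SD over mean) of 1.20, 0.785 and 0.539.

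**Figure D3:**
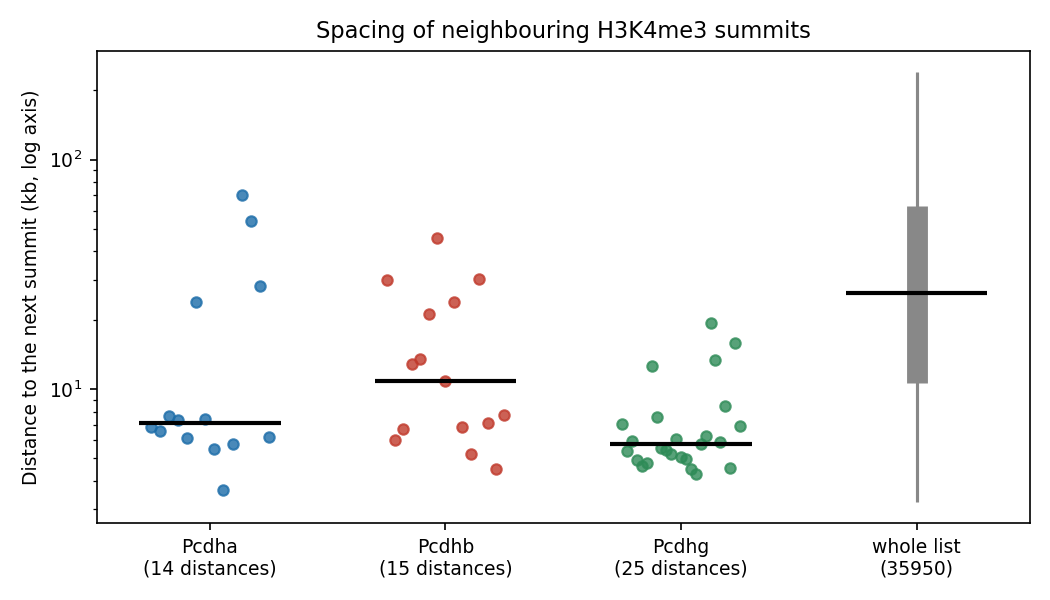
Distance in kb from each H3K4me3 summit to the next within the same stretch, on a log axis; points are single distances and black lines medians. For the whole list the thick bar spans the quartiles and the thin line the 5th to 95th percentiles. Most Pcdhg points lie between 4 and 8 kb, and the medians of all 3 stretches lie below that of the list, 26.2 kb.

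Peaks whose neighbouring summits were at most 10 kb apart were joined into chains. The longest chain of the region had 12 peaks, at 37866311 to 37928800 in Pcdhg. Over the genome 1 chain was longer, with 13 peaks, and 3 others also had 12. The spacing of the 12 peaks had a mean of 5.52 kb and a coefficient of variation of 0.165, the lowest of the 12 chains with at least 10 peaks, whose median was 0.471. The chain before it, of 8 peaks at 37814663 to 37855201, starts with the peak just below the Pcdhg stretch and had a coefficient of 0.159. The first 6 peaks of Pcdha, at 37098499 to 37134168, were 6.16 to 7.63 kb apart with a coefficient of 0.0855. This was the lowest of the 232 chains with at least 5 peaks, whose median was 0.422, and the chains of 8 and 12 peaks ranked 6 and 7 in the same order. The region's remaining chains with at least 5 peaks were less even. Those at 37157087 to 37182355 and 37637126 to 37679009 had coefficients of 0.278 and 0.266 and ranked 41 and 35. These ranks describe 1 library, and the chain rule was chosen after the peaks had been seen.

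Peaks of the region were also alike in the side on which the summit lay. The summit lay nearer the lower edge than the upper edge in 58 of 63 peaks (92.1%, Wilson 95% interval 82.7 to 96.6), against 49.6% of the whole list. Among peaks under 2 kb wide it was 49 of 50, against 49.1% in the list. By stretch the numbers were 14 of 15 in Pcdha, 15 of 16 in Pcdhb and 24 of 26 in Pcdhg. In the flanks they were 17 of 35 and 20 of 46. The summit stood at a median of 38.6% of the width from the lower edge in the region and at 50.1% in the list. For the narrow peaks of the region this was a median of 519 bp below the summit and 879 bp above it, against 591 and 579 bp for narrow peaks of the list. The list mixes peaks leaning to either side, so its near-equal values do not show that single peaks were symmetric. Its summit positions had quartiles of 41.8% and 58.5%, and those of its narrow peaks 43.3% and 57.2%. Peaks of the list were not oriented by direction of transcription. How far summits lay off centre, whatever the side, was not compared. The 5 exceptions included the peaks at 37335737, 37376044 and 37423919, which follow one another around the end of Pcdha and the start of Pcdhb, and those at 37925207 and 38000648 in Pcdhg. Between them ran 38 peaks in a row with the summit on the lower side, from 37454081 to 37922606. That was the longest such row of either side in the genome, where the median row was 1 peak. The next longest rows had 16 peaks, and 1 of these also lay here, from 36952629 below the region to 37332572 in Pcdha.

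**Figure D4:**
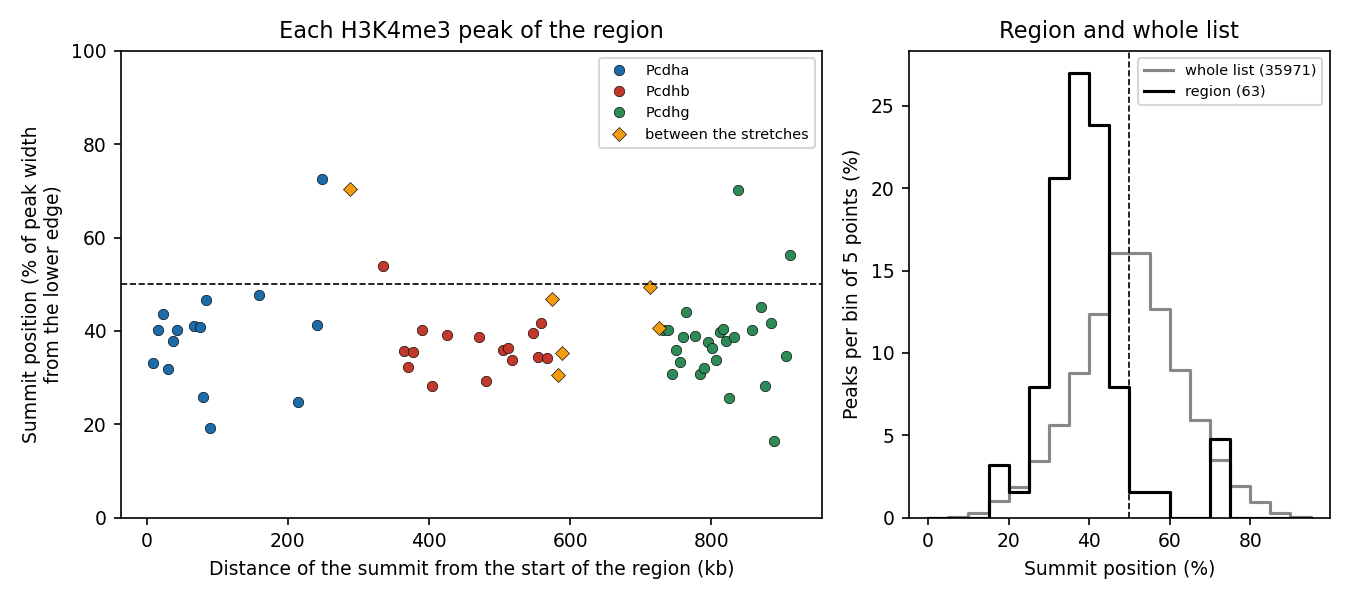
Left, position of the summit in each of the 63 peaks, as a percentage of peak width from the lower edge, by distance from the start of the region in kb. Right, the same percentage as the share of peaks per bin of 5 points, for the region and for the whole list of 35971 peaks; 58 of the 63 points lie below the dashed line at 50%.

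No RARβ peak was found among these H3K4me3 peaks. With 0 peaks on 920 kb, the exact Poisson 95% interval reaches up to 3.69 peaks. A count of 0 on this length was common, since 869 of all 2855 fixed windows of 920 kb held no RARβ peak, whatever their number of H3K4me3 peaks. The flanks of the same length held 8 RARβ peaks below (3.45 to 15.8) and 12 above (6.20 to 21.0), and of these 7 and 10 lay in H3K4me3 peaks, as did 64.9% of all RARβ peaks. A RARβ peak overlapped 0 of the 63 H3K4me3 peaks of the region, with an upper limit of 4.76% by the rule of 3 counts and of 5.75% by the Wilson 95% interval, against 13.1% of the whole list and 11.9% of the H3K4me3 peaks of chromosome 18. It overlapped 7 of 35 H3K4me3 peaks in the flank below and 10 of 46 in the flank above. The share in the list depended on the kind of peak. It was 22.4% where the FDR of the H3K4me3 peak was 5% or lower and 8.09% where it was higher, 8.61% among H3K4me3 peaks between the region's quartiles of tag density (100 to 187 tags per kb) and 9.20% among those between its quartiles of width (1328.5 to 1776 bp). Among the 2361 peaks of the list that were between the quartiles of both, it was 5.72%, above the first of these limits and just under the second. Among peaks wider than 4 kb it was 34.1%, and none of the 3 such peaks of the region had one. The RARβ library had 2237580 filtered tags and its peaks at least 7 tags, so weaker sites were below what this depth can show. Peaks were called by a p cutoff and not by a tag count, so sites of 7 or more tags may also have gone uncalled.

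The RARβ peaks nearest the region lay outside both ends. Below it, the nearest was at 36903638 to 36904286, 185.7 kb away, with 15 tags (exact Poisson 95% interval 8.40 to 24.7) and a fold enrichment of 33.32. The H3K4me3 peak around it was 3160 bp wide, with 506 tags per kb. Another at 36894570 to 36895405 had 22 tags and lay in an H3K4me3 peak with 457 tags per kb. Above the region, a pair stood at 38039391 to 38039939 and 38043029 to 38043552, 29.4 and 33.0 kb away, with 7 tags each (2.81 to 14.4), the fewest in the list. Their H3K4me3 peaks were narrow, 1514 and 1474 bp, with 314 and 83.4 tags per kb. The first of these densities is above the highest of the region's peaks under 2 kb, 270.1 tags per kb, and the second lies within their range. A stronger RARβ peak at 38114166 to 38115273 had 19 tags, and one at 38146046 to 38146909, outside H3K4me3, had 20 tags and a fold enrichment of 53.64. In the gene table Pcdhgc5 is followed by Diaph1, a formin that nucleates actin filaments, and Hdac3, a histone deacetylase.

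The RARβ-free stretch from 36904286 to 38039391 was 1135 kb long, and 519 of the 8054 intervals between neighbouring RARβ peaks were at least as long, itself included. It held 69 H3K4me3 peaks, the most of any such interval, whose median was 2. Counted as a row of neighbouring H3K4me3 peaks without RARβ, these 69 were the longest row on the autosomes. The X chromosome had longer rows, of 77 and 72. Among the fixed windows that do not touch the region, the 3 with at least 63 H3K4me3 peaks held 7 to 31 RARβ peaks. The 87 windows with at least 40 held 2 to 31, with a median of 10. Those without RARβ had at most 32 H3K4me3 peaks. The windows were not matched to the region by width or density of their H3K4me3 peaks, with which the share overlapping RARβ varies. Of the 2 windows left out, 1 held 46 H3K4me3 and 2 RARβ peaks, and the other 69 and 12, all of these RARβ peaks lying outside the region.

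**Figure D5:**
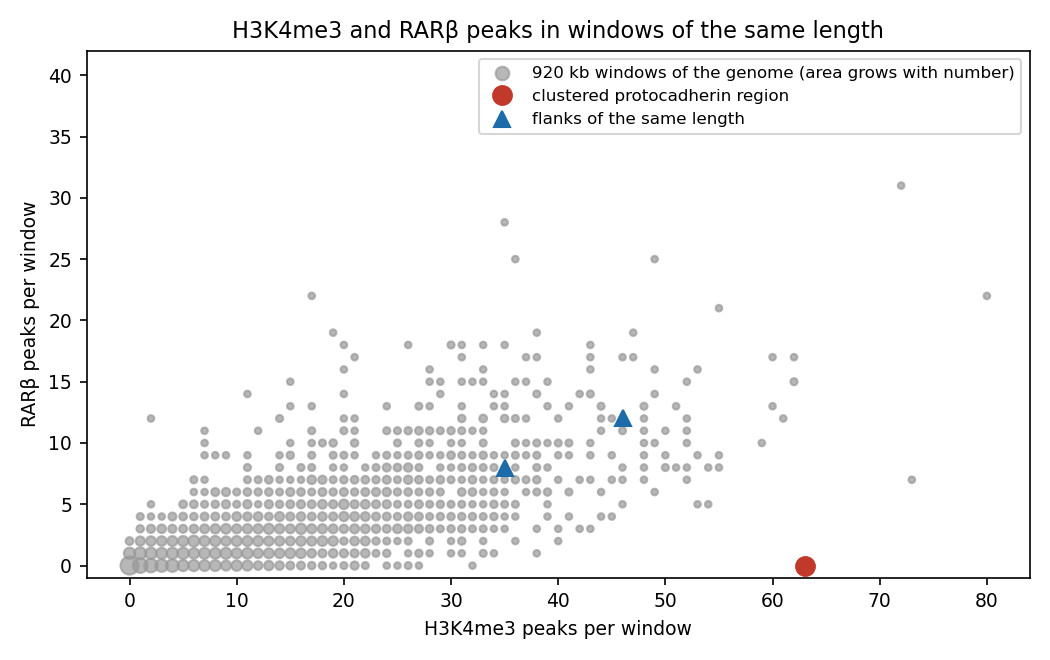
H3K4me3 and RARβ peaks per window of 920 kb over the genome, without the 2 that touch the region (grey, area grows with the number of windows), in the 2 flanks (triangles) and in the clustered protocadherin region (red). The region stands at 63 H3K4me3 peaks and 0 RARβ peaks, while windows without RARβ have at most 32 H3K4me3 peaks. The windows lie on a fixed grid and the region on its own borders, and H3K4me3 peaks were not matched by width or density.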

How the data were processed

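The submitters' processing notes name CASAVA 1.8.2, Bowtie and build mm9. How reads that match several of these similar genes were placed is not given in the sources used here, so a missing peak does not show a missing mark. Per the file headers, MACS 1.4.2 called the peaks of each library separately against 1 shared control, at a p cutoff of 1e-05 with at most 1 tag per position. After filtering, 2237580 RARβ tags, 47461843 H3K4me3 tags and 3703580 control tags were left. The control was scaled up 12.8 times for H3K4me3, so the local background rests on few tags. The authors deposited whole tag counts per peak, a peak score, the fold enrichment (a ratio) and an FDR in percent. The name of the score column was lost, and it was recognised by its place and its lowest values. Peak width and summit offset are other deposited values in bp.

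Tags were divided by width, distances were taken between summits, and peaks shared at least 1 bp to overlap. Medians carry order-statistic 95% intervals, shares Wilson and counts exact Poisson ones. The Poisson intervals cover counting error only, and amplified tags are not independent molecules. The order-statistic and Wilson intervals treat peaks as independent draws, which neighbouring peaks of 1 library are not. None of them covers variation between libraries. No test was made. The code was checked on 800 simulated peaks, where 160 of 160 planted overlaps and 400 of 400 planted chains were found. Named peaks are the 3 densest, 3 widest, 2 least dense and 2 of highest fold in each stretch, the peaks at its ends and those over 4 kb. Others were chosen after their values were seen, as were the chains, the summit side and the windows' thresholds. The band of 4 to 8 kb for distances and the limit of 2 kb for width were not set in advance either. Members and lists were chosen with earlier results of these data known. Python 3.11.15, numpy 2.4.6, pandas 2.3.3, scipy 1.17.1 and matplotlib 3.10.9 were used.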

Additional observations from a re-analysis of the deposited data

How the results depend on the processing

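Of 60 alternatives, 42 were planned and 18 chosen after seeing the data, and 43 stayed within 1.5 times the reported number or within the 95% interval of the reported value. Some of the 43 could not have moved, so this number is no measure of robustness. A limit set on 0 RARβ peaks leaves 0. No peaks of the region lay under 1 kb apart, so joining such peaks left their number unchanged. Widening Pcdha by 20 kb added no peak. A limit on the FDR of at most 5% moved the most, leaving 2 peaks in Pcdha, 0 in Pcdhb and 3 in Pcdhg. For Pcdha the 2 peaks left had a median width of 5382.5 bp, 280 tags per kb and a distance of 123.8 kb. For Pcdhg the 3 left had medians of 3594 bp, 354 tags per kb and 25.8 kb. Pcdhb then gave no median. The share of summits on the lower side became 75% of the 8 peaks of the region left, and 98% of its peaks under 2 kb. Measured from edge to edge, spacing was 5.46 kb in Pcdha and 3.78 kb in Pcdhg. Summed tags over summed length gave 200.1 tags per kb in Pcdha and 237 in Pcdhg, where a few wide peaks hold many of the tags. With summits up to 15 kb apart the longest Pcdhg chain had 21 peaks. With the region widened by 50 kb, 2 RARβ peaks entered. The depth of the RARβ library limits detection. The fewest tags in a called RARβ peak were 7, but sites with as many tags may also have gone uncalled. No paired analysis was possible because there is 1 library per antibody.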
